A study of Mus musculus with 6 samples.

Results

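Homologous recombination and Fanconi repair genes were measured by RNA-seq in murine CD4 T cells cultured with antisense oligonucleotides (ASOs), short strands made to pair with a chosen RNA. The 32 genes were taken by name from both pathways and are 32 of the 56748 genes in the table. The study asked how phosphoglycerate mutase (PGAM), a glycolytic enzyme encoded by *Pgam1* and *Pgam2*, bears on the making of regulatory T cells (Tregs). The cells came from WT mice, which the study's methods give as C57BL/6J aged 6 to 10 weeks, and their source was splenocytes per the labels and spleen with lymph nodes per the methods. Naïve cells were kept for 3 days in Treg polarizing medium with 10 μM of a scrambled ASO (Scramble 1, 2 and 3) or of an ASO against *Pgam* (ASO 1, 2 and 3), and RNA was taken without sorting. The ASO sequences are not given in the sources used here. Total counts were 17588755, 18032805 and 16231127 in Scramble 1, 2 and 3, and 16589933, 15860476 and 16803881 in ASO 1, 2 and 3. The labels do not say that the 3 libraries of a group came from separate animals, and a legend of the study calls them biological replicates. The p-values below measure only the spread between these libraries.

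Homologous recombination mends DNA breaks by copying an intact sister chromatid. The broken ends are trimmed, BRCA proteins prepare the bared strand, and this strand invades the matching sequence. The Fanconi pathway clears crosslinks that tie the strands of DNA together: a core complex attaches ubiquitin to FANCI and FANCD2, nucleases cut beside the lesion, and recombination rejoins the chromosome. Both pathways act mainly around DNA replication, which activated T cells undertake in rapid succession.

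The genes named as targets were examined before the repair genes. *Pgam1* expression was 599.6, 478 and 707 CPM (counts-per-million, scaled by the TMM method of edgeR) in Scramble 1, 2 and 3, and 658, 661 and 707 CPM in ASO 1, 2 and 3. The groups overlapped, and the log2 fold change of the ASO over the Scramble libraries was 0.18, with a standard error (SE) of 0.13 and an adjusted p of 0.331. Unless another tool is named, every adjusted p comes from the quasi-likelihood test of edgeR, adjusted over 14936 tested genes by the Benjamini-Hochberg method. *Pgam2* expression was 5.23, 6.75 and 2.85 CPM in Scramble 1, 2 and 3, and 2.98, 2.69 and 2.60 CPM in ASO 1, 2 and 3. ASO 1 lay above Scramble 3, and the log2 fold change was -0.84 (SE 0.31, adjusted p = 0.0854). Its adjusted p was 0.0144 without Scramble 3 and 0.0292 with no filter on low counts, within a range of 0.0144 to 0.286 over 14 alternative settings. Neither target transcript passed the threshold of 0.05, so the libraries are called by their labels throughout. *Pgam1* shares 37.1% of its stretches of 31 bases with the pseudogene *Pgam1-ps2*, which was counted at 7.14 CPM in the Scramble and 7.69 CPM in the ASO libraries (log2 fold change 0.11, adjusted p = 0.727), little beside *Pgam1*.

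All of 8 T cell markers passed the filter on low counts, led by *Cd4* at a mean of 718 CPM over the libraries. Their summed expression was 2933, 3157 and 2722 CPM in Scramble 1, 2 and 3 and 2407, 2406 and 2523 CPM in ASO 1, 2 and 3. *Cd5* and *Cd28* fell and 0 of 8 rose. Of 5 Treg markers, *Il2ra* rose and *Foxp3* and *Ikzf2* fell. The 6 B cell markers summed to 329, 458 and 222 CPM in Scramble 1, 2 and 3 and to 85.3, 119.8 and 149.9 CPM in ASO 1, 2 and 3. Nearly all of this was *Ighm*, which fell, whereas *Ms4a1* did not pass 1.29 CPM in any library. The 8 myeloid markers summed to between 8.34 and 10.8 CPM and the 6 erythroid markers to between 1.55 and 2.87 CPM. Of 2 CD8 markers that summed to between 10.8 and 15.7 CPM, *Cd8a* rose, and *Cd8b1*, the more abundant at 9.27 CPM in the Scramble and 8.08 CPM in the ASO libraries, had a log2 fold change of -0.20 (adjusted p = 0.454). The 4 mast cell and basophil markers summed to between 1.07 and 1.89 CPM in the Scramble and between 2.96 and 4.10 CPM in the ASO libraries. Of 4 NK markers, *Klrb1c* and *Klra8* were at 0 in every library, and *Eomes*, which held nearly all of the sum of 24.1 to 55.0 CPM, fell. The part of these markers in the results below was not tested. In such bulk samples, fewer cells of a type and less RNA per cell cannot be told apart.

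Every one of the 32 repair genes passed the filter, with counts between 67 and 2154 in a library. *Rad54l*, *Fanca* and *Rad50* were higher in the ASO libraries at an adjusted p under 0.05, by 1.47-fold, 1.44-fold and 1.42-fold. The 3 higher genes are 9.38% of the 32, against 8.03% of all tested genes called higher. No repair gene was called lower by edgeR (0 at an unadjusted p under 0.05 as well, and 0 by DESeq2 and limma-voom), against 9.15% of all tested genes. In either direction 17.2% of all tested genes were called, so at this threshold the share of calls among the repair genes was near or under the background. At an unadjusted p under 0.05, 10 of the 32 were higher (31.25%, against 17.2% of all tested genes) and 0 lower (against 17.7%). In 13 of the 32 genes every ASO library lay above every Scramble library, against 19.6% of tested genes, and in 0 every ASO library lay below, against 19.8%.

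The log2 fold changes ran from -0.22 for *Rad51c* to 0.56 for *Rad54l*, with a median of 0.17 beside -0.0061 for all tested genes. They were above 0 for 25 of the 32 genes, or 78.1%, against 49.4% of all tested genes. With library totals alone as the scaling, 22 were above 0. DESeq2 called *Exo1* as well, which made 12.5% of the 32 higher, beside 10.4% of all tested genes. With no filter on low counts *Exo1*, *Bard1* and *Rad54b* joined the 3 genes. That made 6 of the 32 higher, beside 1832 of 28512 genes tested there. Individual libraries weighed on the count of calls. It was 3, 0 and 5 without ASO 1, 2 and 3, and 2, 3 and 7 without Scramble 1, 2 and 3, while the calls over all genes went from 2565 to 871, 391 and 3319 and to 620, 1256 and 3484. Without ASO 2, where edgeR called 0 repair genes, 4 were higher and 0 lower at an unadjusted p under 0.05. The share higher was 12.5% beside 11.5% of all genes tested there, and with all libraries it was 31.25% beside 17.2%. Without Scramble 3 the median log2 fold change was 0.27.

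**Figure D1:**
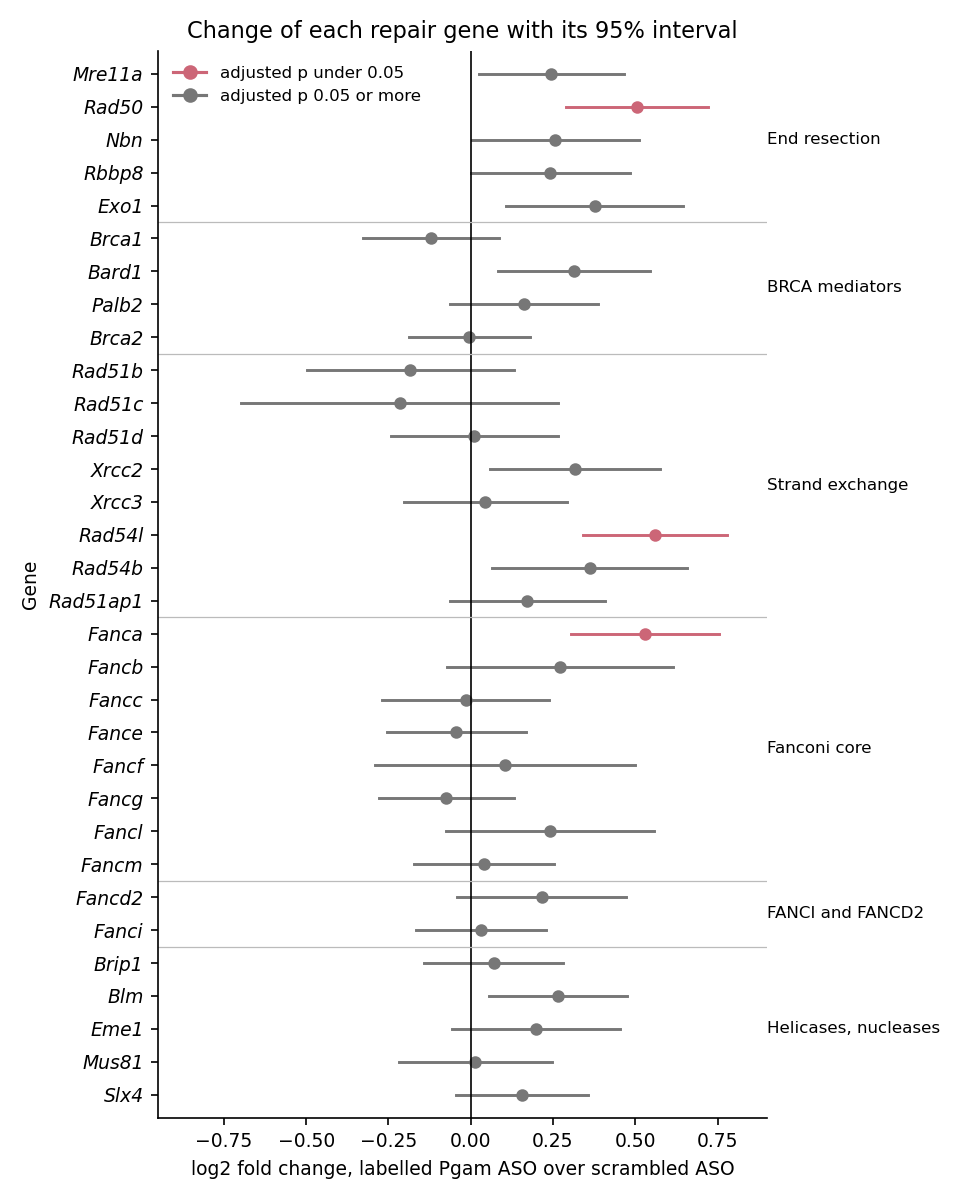
Log2 fold change of each of the 32 repair genes, libraries labelled *Pgam* ASO over those labelled scrambled ASO, as a point with its 95% confidence interval from edgeR, grouped by role (n = 3 per group). The 3 genes with an adjusted p under 0.05, *Rad50*, *Rad54l* and *Fanca*, lie between 0.50 and 0.56, and 25 points lie right of 0.

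The promoters of 4 members are shown because *Rad54l* and *Fanca* were called and *Brca1* and *Brca2*, central to the pathway, were not. Promoter windows of RefSeq, from 250 bases before to 50 bases after the start on GRCm38.p6, were found for 24 of the 32 genes and not for *Rad50*, *Nbn*, *Rbbp8*, *Exo1*, *Rad51d*, *Xrcc2*, *Rad54b* and *Fancd2*. The stretch before the start is printed 5′ to 3′ in the direction of the gene, ending earlier where a neighbouring gene starts on the other strand. Capitals mark CCAAT in the first 3 sequences, and in *Brca2* the reverse complement of TTTCCCGC, a form of the E2F word. They lie at chr4:116123691-116123839 on the reverse strand for *Rad54l*, chr8:123318577-123318826 on the reverse strand for *Fanca*, chr11:101551956-101552148 on the reverse strand for *Brca1* and chr5:150522371-150522620 on the forward strand for *Brca2*.
Rad54l: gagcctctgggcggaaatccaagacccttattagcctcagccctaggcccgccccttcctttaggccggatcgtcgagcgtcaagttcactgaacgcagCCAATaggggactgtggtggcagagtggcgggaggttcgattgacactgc
Fanca: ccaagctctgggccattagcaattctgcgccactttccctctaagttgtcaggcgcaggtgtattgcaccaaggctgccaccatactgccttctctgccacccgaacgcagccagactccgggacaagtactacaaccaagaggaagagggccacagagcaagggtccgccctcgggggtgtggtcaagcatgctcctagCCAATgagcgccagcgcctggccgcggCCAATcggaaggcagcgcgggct
Brca1: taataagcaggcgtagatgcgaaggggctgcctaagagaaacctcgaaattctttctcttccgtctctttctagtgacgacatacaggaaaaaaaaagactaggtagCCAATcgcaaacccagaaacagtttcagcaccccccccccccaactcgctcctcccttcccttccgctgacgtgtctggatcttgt
Brca2: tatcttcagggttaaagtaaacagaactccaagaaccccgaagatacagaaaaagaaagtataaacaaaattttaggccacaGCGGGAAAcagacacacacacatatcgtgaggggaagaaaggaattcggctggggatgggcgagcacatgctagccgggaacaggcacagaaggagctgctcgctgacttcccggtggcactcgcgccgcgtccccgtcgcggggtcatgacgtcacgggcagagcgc
The *Fanca* stretch holds CCAAT in 2 places within 50 bases of the start and *Rad54l* in 1 place at 50 bases. The word stands 86 bases before the start of *Brca1*, whose expression did not pass the test.

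Words were searched on both strands of the 300-base windows, and none of them contains another. CCAAT was in 16 of 24 windows (66.7%, against 41.1% of 27025 genes with a window). TTTGGCGC, TTTCCCGC, TTTGGCGG or TTTCCCGG, forms of the E2F site, were in 4 (16.7%, against 3.79%): *Bard1*, *Brca2*, *Fancg* and *Rad51c*. Their log2 fold changes ran from -0.22 to 0.31 and 0 of the 4 were called, also by DESeq2, beside 17.2% of all tested genes by edgeR. *Bard1* passed with no filter on low counts (adjusted p = 0.0375) and without Scramble 3 (adjusted p = 0.0325). The cell cycle words TTTGAA or TTCGAA were in 3 windows (12.5%, against 21.7%), and the NRF1 word GCATGCGC in 2 (8.33%, against 3.05%). The median log2 fold change was 0.13 for genes whose window holds CCAAT and 0.022 for those that lack it. For the E2F words it was -0.040 and 0.13, for the cell cycle words 0.20 and 0.070 and for the NRF1 word 0.035 and 0.13. These splits were not tested. These are letter matches, not binding sites.

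Among the end resection genes, which trim a break, the MRE11-RAD50-NBN complex holds the ends and its nuclease makes the first cut. *Rad50* (ENSMUSG00000020380), the ATPase of this complex, lies on chromosome 11 from 53649519 to 53707319 on the reverse strand of GRCm38. Its expression was 94.4, 79.7 and 96.3 CPM in Scramble 1, 2 and 3, and 134, 131 and 118 CPM in ASO 1, 2 and 3. The lowest ASO library stood above the highest Scramble library, with Scramble 2 furthest down. Means were 90.1 ± 9.09 and 128 ± 8.21 CPM (SD, n = 3), and the log2 fold change was 0.50 (SE 0.097, 95% interval 0.29 to 0.72, adjusted p = 0.0108). Without ASO 2 it was 0.49 with an adjusted p of 0.0707, and over the 14 alternatives the adjusted p ran from 1.93e-05 to 0.0707. *Rad50* shares no stretch of 31 bases with another gene.

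The partners of *Rad50* did not pass the test. *Mre11a*, the nuclease, had a log2 fold change of 0.25 (SE 0.099, adjusted p = 0.109) and *Nbn*, the adaptor, of 0.26 (SE 0.11, adjusted p = 0.137). The call turned on single libraries for both, with an adjusted p of 0.0426 for *Mre11a* without ASO 3 and of 0.0443 for *Nbn* without Scramble 3, and maxima over the alternatives of 0.323 and 0.365. *Rbbp8*, whose product spurs MRE11 to cut, came to 0.24 (adjusted p = 0.143). *Exo1*, the exonuclease that extends the trimming, measured 43.3, 37.2 and 48.9 CPM in Scramble 1, 2 and 3 against 58.4, 60.1 and 49.3 CPM in ASO 1, 2 and 3. Its groups did not overlap, but ASO 3 exceeded Scramble 3 by under 1 CPM. The log2 fold change was 0.38 (SE 0.12, adjusted p = 0.0573), and the adjusted p was 0.0377 with DESeq2, 0.00814 with no filter, 0.0303 without ASO 3 and 0.0238 without Scramble 3, up to 0.209 without another library. Summed over the 5 end resection genes, expression was 285.5, 259.7 and 311 CPM in Scramble 1, 2 and 3 and 377, 378 and 338 CPM in ASO 1, 2 and 3.

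The BRCA mediators prepare the trimmed strand for pairing. *Brca1*, a ubiquitin ligase and scaffold, was the most abundant of the 4 before scaling to length, at 114.6, 98.1 and 118 CPM in Scramble 1, 2 and 3 and 96.3, 105.8 and 102 CPM in ASO 1, 2 and 3. The groups overlapped, with ASO 1 lowest and Scramble 3 highest. Its log2 fold change was -0.12 (SE 0.093, 95% interval -0.33 to 0.085, adjusted p = 0.383). *Bard1*, whose product pairs with BRCA1 to form the active ligase, measured 45.2, 38.1 and 48.2 CPM in Scramble 1, 2 and 3 and 56.1, 53.1 and 54.2 CPM in ASO 1, 2 and 3. All ASO libraries lay above all Scramble libraries and close to each other. The log2 fold change was 0.31 (SE 0.10, 95% interval 0.083 to 0.55), with an adjusted p of 0.0614. This became 0.0325 without Scramble 3 and 0.0375 with no filter, and reached 0.167 without another library.

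*Palb2*, which links BRCA1 to BRCA2, had a log2 fold change of 0.16 (SE 0.10, adjusted p = 0.285) without overlap of the groups. *Brca2* measured 74.9 ± 3.62 CPM in the Scramble and 74.7 ± 3.50 CPM in the ASO libraries (SD, n = 3). Its log2 fold change was -0.0048, with a 95% interval of -0.19 to 0.18.

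In strand exchange, *Rad54l* (ENSMUSG00000028702) encodes RAD54, a motor that acts in strand invasion. It lies on chromosome 4 from 116094264 to 116123690 on the reverse strand. Expression was 65.7, 55.8 and 70.1 CPM in Scramble 1, 2 and 3, and 96.3, 96.5 and 89.8 CPM in ASO 1, 2 and 3. The ASO libraries stood close together, well apart from the Scramble libraries, of which Scramble 2 was lowest. Group means were 63.9 ± 7.35 and 94.2 ± 3.82 CPM (SD, n = 3), for a log2 fold change of 0.56 (SE 0.099, 95% interval 0.34 to 0.78, adjusted p = 0.00786). Without ASO 2 it was 0.54 with an adjusted p of 0.0569, in a range of 3.27e-06 to 0.0569 over the alternatives. *Rad54l* shares 13.5% of its 31-base stretches with the overlapping gene *Lrrc41*, whose own log2 fold change was 0.10 (adjusted p = 0.521).

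The paralog *Rad54b* had a log2 fold change of 0.36 (SE 0.13, adjusted p = 0.0849, and 0.0287 with no filter in a range up to 0.309). It shares 34.98% of its 31-base stretches with *Fsbp*, which was counted at 2.43 to 6.27 CPM. No other strand exchange gene passed the test. *Xrcc2* came to 0.32 (SE 0.12, adjusted p = 0.0823) with no overlap, *Rad51d* to 0.011 and *Xrcc3* to 0.044. *Rad51b* and *Rad51c* came to -0.18 and -0.22, the lowest of the 32, with adjusted p of 0.386 and 0.514. *Rad51c* was also the least abundant repair gene, at 5.67 ± 0.511 and 4.87 ± 1.01 CPM (SD, n = 3), and its interval of -0.70 to 0.27 was the widest. *Rad51ap1* measured 58.9 ± 6.50 and 66.3 ± 5.66 CPM (SD, n = 3) with overlapping groups.

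**Figure D2:**
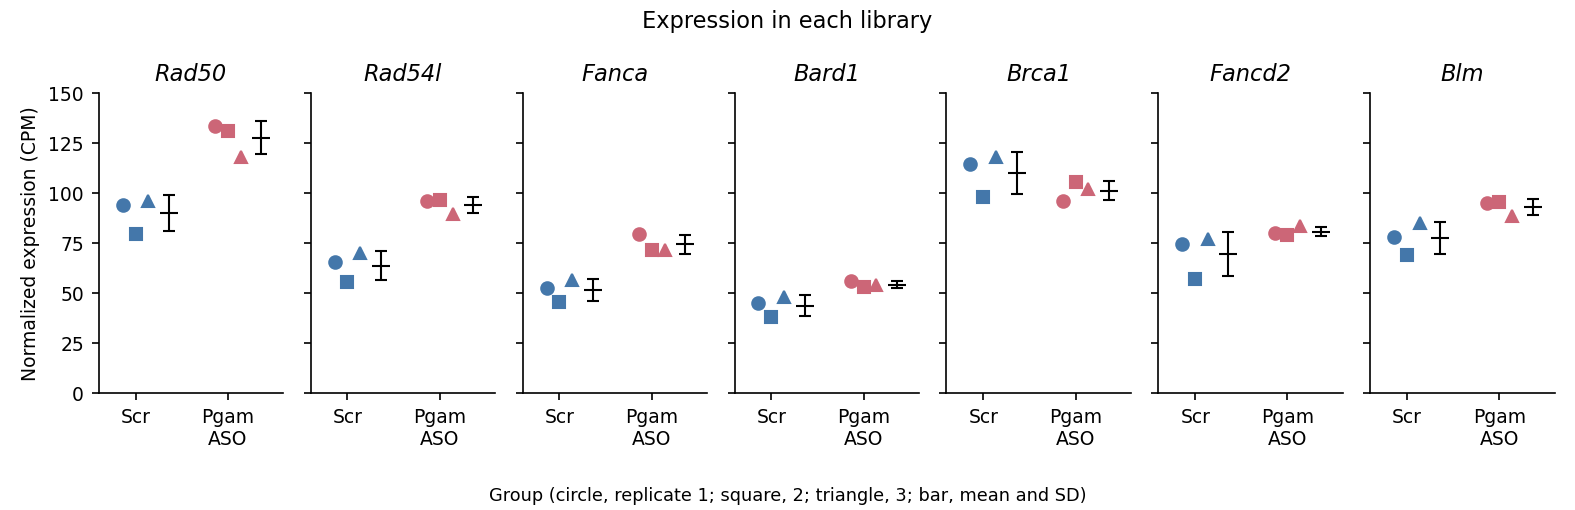
Normalized expression (CPM, linear axis from 0) of 7 repair genes in each library, with replicates as symbols and the mean ± SD of 3 libraries as bars. For *Rad50*, *Rad54l*, *Fanca*, *Bard1*, *Fancd2* and *Blm* every ASO library lies above every Scramble library, and for *Brca1* the groups overlap.

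The Fanconi core complex, the ubiquitin ligase of the pathway, contributed 8 genes. *Fanca* (ENSMUSG00000032815), a large subunit of the core, lies on chromosome 8 from 123268300 to 123318576 on the reverse strand. It measured 52.6, 45.7 and 56.7 CPM in Scramble 1, 2 and 3, and 79.9, 71.9 and 71.8 CPM in ASO 1, 2 and 3. Its groups were clearly separate, with ASO 1 highest and Scramble 2 lowest. Means of 51.7 ± 5.53 and 74.5 ± 4.63 CPM (SD, n = 3) gave a log2 fold change of 0.53 (SE 0.10, 95% interval 0.30 to 0.75, adjusted p = 0.0107). Without ASO 2 it was 0.55 with an adjusted p of 0.0561 and without Scramble 1 it was 0.54 with an adjusted p of 0.0503, in a range of 2.87e-05 to 0.0561 over the alternatives. The neighbour *Zfp276*, which shares 9.61% of the *Fanca* stretches, went the other way at -0.25 without passing the test (adjusted p = 0.122).

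No other core gene passed the test. *Fancl*, the subunit with ligase activity, came to 0.24 (adjusted p = 0.257) without overlap of the groups, and *Fancb*, its partner, to 0.27 (adjusted p = 0.239). *Fancc*, *Fance*, *Fancf*, *Fancg* and *Fancm*, the last of which anchors the complex to DNA, lay between -0.074 and 0.10 with an adjusted p of at least 0.599. *Fancg* and *Fanca* products sit in the same part of the complex, and *Fancg* measured 37.5 ± 1.94 and 35.6 ± 0.969 CPM (SD, n = 3). *Fancf* varied most between replicates, by 19.8% of its mean in the Scramble libraries. *Fancc*, *Fancf* and *Fancl* share 17.2%, 13.4% and 12.3% of their 31-base stretches with other genes.

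The complex marks the pair FANCI and FANCD2. *Fancd2* expression was 74.8, 57.0 and 77.4 CPM in Scramble 1, 2 and 3, and 80.1, 79.2 and 83.5 CPM in ASO 1, 2 and 3. Scramble 2 was far below the other libraries, and the remaining Scramble libraries lay just under the ASO libraries. The log2 fold change was 0.22 (SE 0.12, 95% interval -0.041 to 0.47, adjusted p = 0.213) and went from 0.087 without Scramble 2 to 0.30 without Scramble 3. *Fanci*, with 49.0 ± 2.11 and 50.04 ± 2.64 CPM (SD, n = 3), came to 0.031 (adjusted p = 0.833).

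Helicases and nucleases resolve the joined molecules. *Blm*, the helicase that dissolves crossed strands, measured 78.3, 69.3 and 85.2 CPM in Scramble 1, 2 and 3 and 95.03, 95.9 and 88.6 CPM in ASO 1, 2 and 3. The groups did not overlap, and ASO 3 and Scramble 3 lay nearest to each other. Its log2 fold change was 0.26 (SE 0.094, 95% interval 0.055 to 0.47, adjusted p = 0.0766), and the adjusted p was 0.0351 without Scramble 3 and at most 0.230 without another library. *Eme1*, which forms a nuclease with MUS81, came to 0.20 (adjusted p = 0.248), *Slx4*, the nuclease scaffold, to 0.16 (adjusted p = 0.248), *Brip1*, a helicase that binds BRCA1, to 0.070 and *Mus81* to 0.014. With 24.5 ± 0.475 CPM (SD, n = 3), *Mus81* varied least among the Scramble libraries, by 1.94% of its mean.

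Some proteins of this pathway work together in a complex, so count ratios were formed in each library for 7 pairs of genes chosen after the values were seen. Among these pairs, *Rad54l* and *Rad54b* are paralogs. *Bard1* over *Brca1* was 0.395, 0.388 and 0.408 in Scramble 1, 2 and 3 and 0.583, 0.502 and 0.531 in ASO 1, 2 and 3. The Scramble ratios lay within a narrow band, and the ASO ratios were above it in 3 of 3 libraries. The means were 0.397 ± 0.0101 and 0.538 ± 0.0412 (SD, n = 3), a log2 difference of 0.44. *Rad50* over *Mre11a* was 1.11 ± 0.112 and 1.33 ± 0.0589 and *Palb2* over *Brca2* was 0.337 ± 0.0112 and 0.378 ± 0.0253 in the Scramble and ASO libraries (SD, n = 3), also with no overlap. The smallest two-sided exact permutation p that 3 against 3 libraries allow is 0.1 (here 0.2 after Benjamini-Hochberg adjustment over 7 pairs), so no pair could pass 0.05, and the ratios are given as descriptions. The ratios of *Rad50* to *Nbn*, *Rad54l* to *Rad54b*, *Fancd2* to *Fanci* and *Eme1* to *Mus81* overlapped between the groups.

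**Figure D3:**
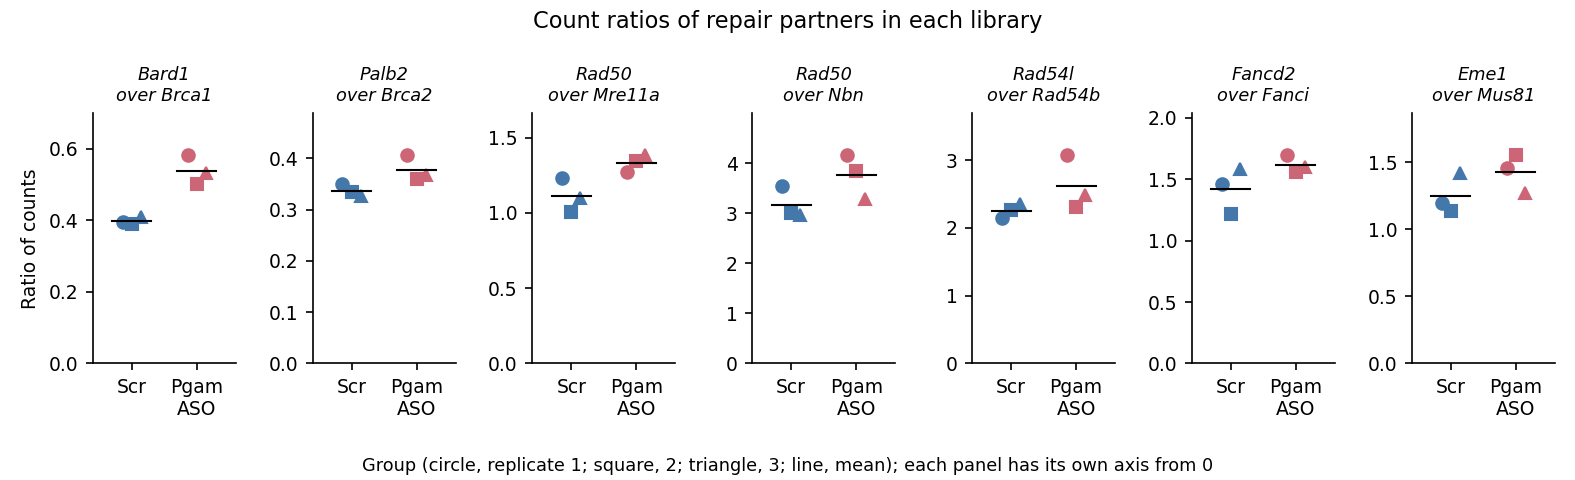
Ratio of the counts of 7 pairs of repair genes in each library, with replicates as symbols and the group mean as a line. Each panel has its own linear axis from 0. *Bard1* over *Brca1* lies between 0.388 and 0.408 in the Scramble and between 0.502 and 0.583 in the ASO libraries.

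Taken library by library, the 32 genes summed to 1395, 1269.9 and 1453 CPM in Scramble 1, 2 and 3, and to 1579, 1608 and 1536 CPM in ASO 1, 2 and 3. Group means were 1373 ± 93.6 and 1574 ± 36.2 CPM (SD, n = 3). Scramble 2 held the lowest value of its group for 23 of the 32 genes and Scramble 3 the highest for 21. Relative to the group mean, the median repair gene stood at -0.12 log2 in Scramble 2 and at 0.10 in Scramble 3, whereas the ASO libraries stayed between -0.0097 and 0.028. The median of all tested genes stood at -0.0027 in Scramble 2 and at 0.0047 in Scramble 3. Variation between replicates was wider in the Scramble group, with a median coefficient of variation of 9.89% against 5.61% in the ASO group. For all tested genes it was 12.1% and 11.6%. The 44 replication genes summed to 5429, 4672 and 5882 CPM in Scramble 1, 2 and 3 and to 6715, 6698.5 and 6310 CPM in ASO 1, 2 and 3, with the same order among the Scramble libraries. The part of this order in the result was not tested.

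**Figure D4:**
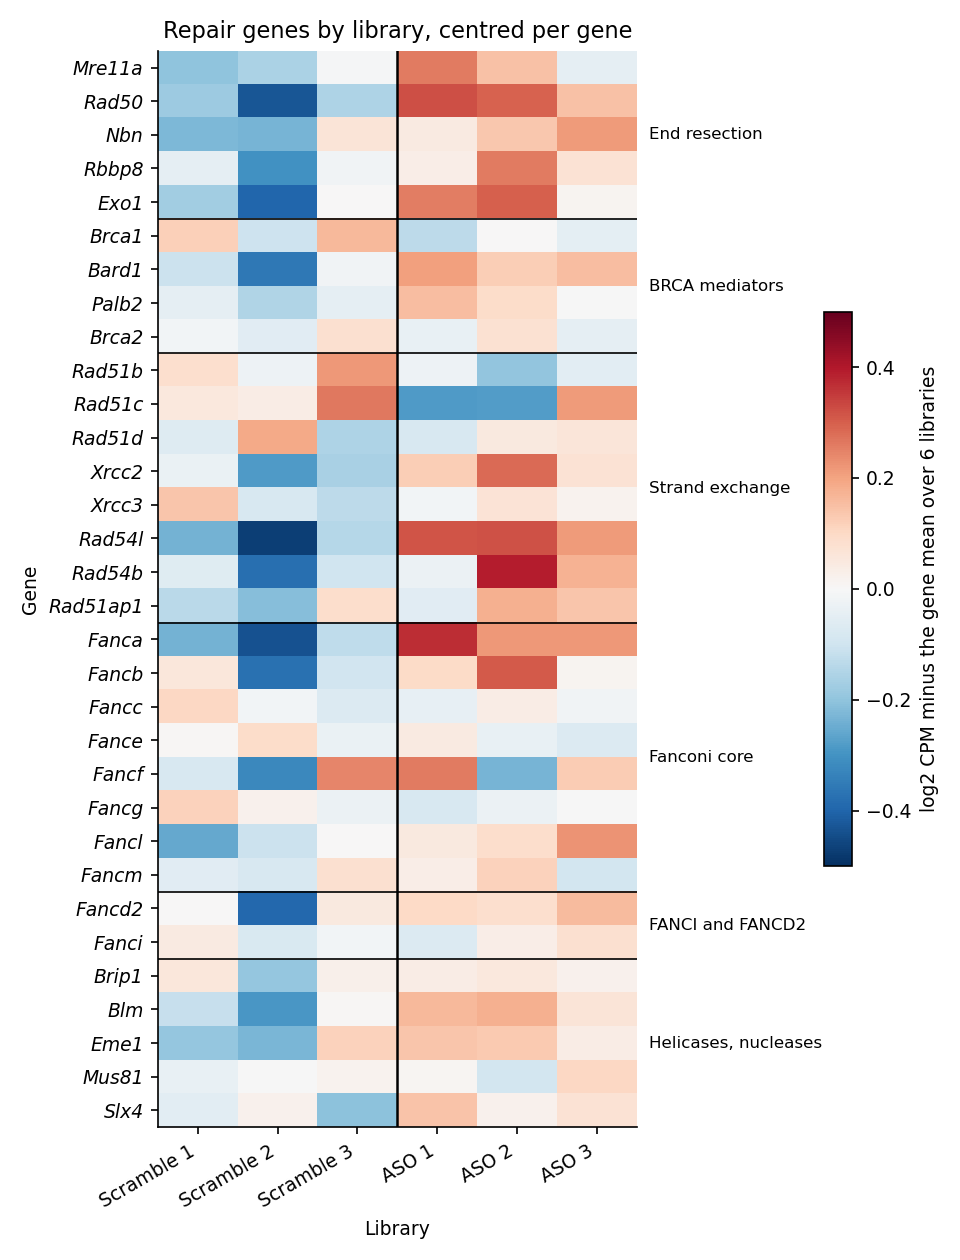
Log2 CPM of the 32 repair genes in the 6 libraries, minus each gene's mean over the libraries, with genes grouped by role; red is above and blue below the gene's mean. Scramble 2 is lowest of its group for 23 genes, and *Rad50*, *Rad54l* and *Fanca* are blue in every Scramble and red in every ASO library.

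Levels between genes depended on the transcript length used. Per kilobase of the longest annotated transcript, *Rad51ap1*, *Rad50*, *Brca1* and *Blm* stood at 26.4 ± 2.91, 17.5 ± 1.76, 16.8 ± 1.62 and 16.3 ± 1.67 CPM in the Scramble libraries (SD, n = 3). Per kilobase of the mean transcript length these 4 genes stood at 53.7 ± 5.93, 39.0 ± 3.94, 59.8 ± 5.79 and 40.7 ± 4.18 CPM (SD, n = 3), with *Brca1* first in place of *Rad51ap1*, and the median of the 32 genes went from 10.1 to 22.8 CPM. *Exo1* went from rank 29 to rank 9 and *Brca2*, whose longest transcript has 10724 bases, from rank 23 to rank 11. *Rad51c* was lowest by either length, at 1.44 ± 0.130 and 2.64 ± 0.238 CPM per kilobase (SD, n = 3), and *Fancb* and *Fancl* were among the 5 lowest by both. On the scale of CPM without length, 26 of the 32 genes were above the median tested gene at 21.15 CPM.

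The repair genes lie on 15 chromosomes, with 7 of them on chromosome 11. For 9 of the 32 (28.1%) another gene starts on the opposite strand within 1000 bases, against 10.8% of 11910 tested protein-coding genes. Of these 9 opposite genes 2 were called, both lower, beside 17.2% of all tested genes in either direction and 9.15% lower. *Nbr1* starts 194 bases from *Brca1* and fell (log2 fold change -0.38, SE 0.087, adjusted p = 0.0196), and *Zfyve26*, next to *Rad51b*, fell (-0.32, SE 0.087, adjusted p = 0.0347). *Pomgnt1* starts 150 bases from *Rad54l* and came to 0.25 (adjusted p = 0.167). The longest transcripts of the repair genes had a median of 3847 bases, against 2998 bases for 14694 tested genes with a known length.

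Other genes of both pathways, 62 of them tested, gave 8 calls higher (12.9%, beside 8.03% of all tested genes) and 0 lower (beside 9.15%) by edgeR, with a median log2 fold change of 0.12. In either direction the 12.9% was under the 17.2% of all tested genes. At an unadjusted p under 0.05, 19 were higher (30.6%, beside 17.2% of all tested genes) and 3 lower (4.84%, beside 17.7%). DESeq2 called 12 higher (19.4%, beside 10.4%) and 1 lower (1.61%, beside 11.1%). The calls by limma-voom were 8 higher (12.9%, beside 7.84%) and 0 lower (beside 9.05%). *Polq*, the polymerase of an alternative end joining route, rose from 62.7 ± 2.89 to 86.2 ± 2.72 CPM (log2 fold change 0.46, SE 0.081, adjusted p = 0.00778). *Rmi2*, a subunit of the BLM complex, rose from 24.9 ± 5.58 to 42.0 ± 3.42 CPM (0.75, SE 0.15, adjusted p = 0.0130), and *Rtel1*, a helicase that takes apart invading strands, from 70.3 ± 3.59 to 90.5 ± 1.55 CPM (0.36, SE 0.080, adjusted p = 0.0170; SD, n = 3 throughout). The list gave 2, 1 and 11 calls without ASO 1, 2 and 3 and 1, 4 and 15 without Scramble 1, 2 and 3. Among all genes tested there, calls in either direction were 5.60%, 2.51% and 21.5% without ASO 1, 2 and 3. They were 4.02%, 8.22% and 22.5% without Scramble 1, 2 and 3.

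End joining, which rejoins breaks without a template, had 1 gene higher and 1 lower of 14 tested (14.3%, under the 17.2% of all tested genes) and a median of -0.049. *Xrcc6*, which binds broken ends, rose by 0.46 (SE 0.091, adjusted p = 0.0119), and *Polm*, a gap-filling polymerase, came to -0.39 (SE 0.10, adjusted p = 0.0319). The count was 1, 0 and 2 without ASO 1, 2 and 3 and 0, 1 and 2 without Scramble 1, 2 and 3, with 1 gene higher and 2 lower at an unadjusted p under 0.05 without ASO 2. Replication genes gave 15 calls higher and 0 lower of 44 (34.1%, median 0.31) and mitotic genes 15 and 0 of 37 (40.5%, median 0.25), beside 8.03% of all tested genes higher, with 0 lower also at an unadjusted p under 0.05 and by DESeq2 and limma-voom. Of these *Orc1* (0.75, adjusted p = 0.0123), *Clspn* (0.35, adjusted p = 0.0208) and *Mcm10* (0.44, adjusted p = 0.0241) led the replication list, and *Mad1l1* (0.46, adjusted p = 0.0159), *Plk1* (0.48, adjusted p = 0.0191) and *Spc24* (0.55, adjusted p = 0.0212) the mitotic list. Without ASO 1, 2 and 3 the replication calls numbered 1, 0 and 16 and the mitotic calls 0, 0 and 12. Without Scramble 1, 2 and 3 they numbered 0, 4 and 24, and 0, 5 and 18. For these 3 lists too, the share of all genes called moved with the library left out. It ran from 2.51% without ASO 2 to 22.5% without Scramble 3, in either direction. At an unadjusted p under 0.05 and without ASO 2, 21 replication and 18 mitotic genes were higher, or 47.7% and 48.6% beside 11.5% of all genes tested there.

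**Figure D5:**
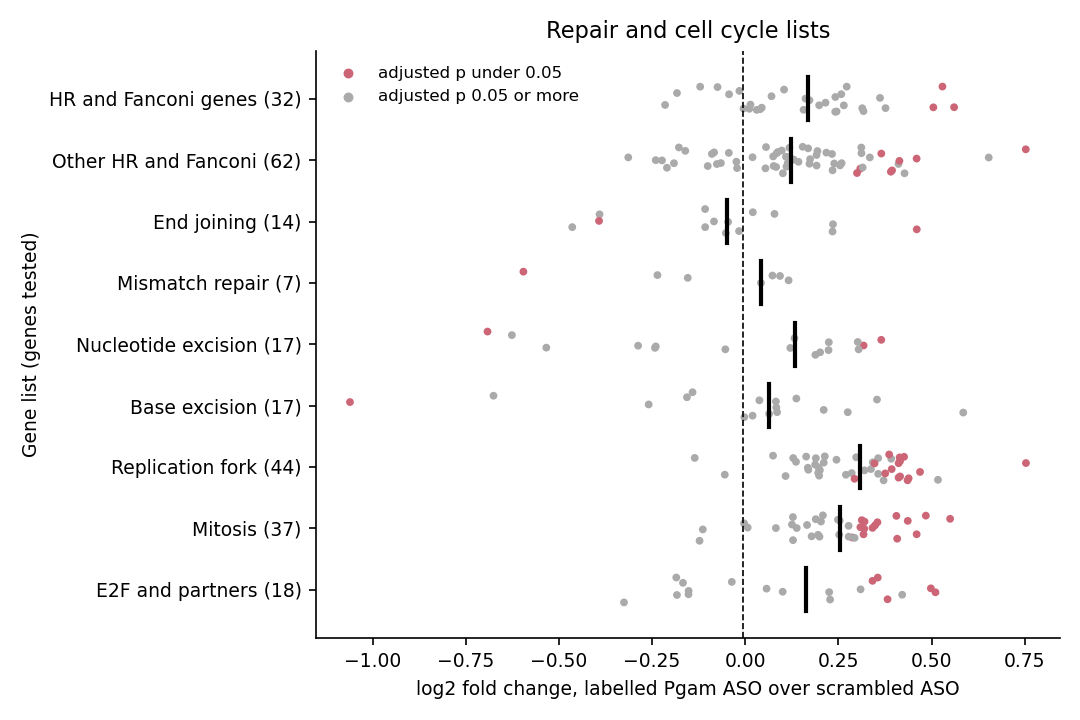
Log2 fold change of each tested gene in 9 lists, libraries labelled *Pgam* ASO over scrambled ASO, with red points at an adjusted p under 0.05, a bar at each list's median and a dashed line at the median of all tested genes (-0.0061). The medians run from -0.049 for end joining to 0.31 for the replication fork, and the HR (homologous recombination) and Fanconi genes lie at 0.17.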

How the data were processed

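The data are 6 RNA-seq libraries, 3 per ASO. The table deposited by the authors holds the estimated count of each gene in each library, made with Kallisto on GRCm38 per the submitters' processing notes, in whole numbers without normalization. The Kallisto version and annotation are not given in the sources used here. Of 56748 genes, 52125 are in GENCODE M21, which gave coordinates, lengths and 31-base stretches shared between genes; 0 columns were unused. The analysis used R 4.3.3 and edgeR 4.0.16 (filterByExpr, TMM, robust quasi-likelihood test, two-sided, Benjamini-Hochberg adjustment, threshold 0.05), which tested 14936 genes without covariates. CPM were computed on TMM-scaled library sizes, and 95% intervals from the standard error of each fold change. Members, gene lists and cell markers were chosen with earlier results of these data known. Of the lists, *H2ax*, *Hrob*, *Shld3* and *Lin54* were not matched to the table. Values in every library were given for each member that passed the threshold and, in each role, for the most abundant member and, where none passed, the one with the smallest p; in other lists, genes named were among the 3 each way with the smallest adjusted p. *Exo1*, *Mybl2* and *E2f3* were chosen outside this rule after their values were seen. Alternatives were DESeq2 1.42.0, limma-voom (limma 3.58.1), RLE size factors, total counts alone, no filter on low counts, at least 10 counts in every library, a block for the replicate number, the robust option off, each library left out, a threshold of 0.01 and, for levels per kilobase, the mean transcript length. The procedure was tested on simulated data. Promoters and words were read in Python 3.11.15, and exact permutation tests were enumerated.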

Additional observations from a re-analysis of the deposited data

How the results depend on the processing

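Under DESeq2, limma-voom, RLE size factors, total counts alone, at least 10 counts in every library, no filter on low counts and the robust option off, *Rad50*, *Rad54l* and *Fanca* remained called. Of 448 values of single repair genes over 14 alternatives, 413 kept their direction and their side of the threshold, 10 passed it, 4 no longer passed it and 21 changed sign, all of them in genes that were not called. No filter gave 6 of 32 repair genes and 23 of 44 replication genes, beside 13.1% of 28512 genes tested there in either direction. DESeq2 called 13 of 62 genes of the wider list, beside 21.5% of all tested genes in either direction. At a threshold of 0.01, 453 genes, 1 repair gene and 1 gene of the wider list were called. Correlations of deviations from the group mean across genes were 0.0534, -0.034 and -0.237 for equal replicate numbers. For unequal numbers they ran from -0.254 to 0.28. With 3 libraries per group these values cannot decide whether equal numbers share an animal or culture, which the labels do not say. With the replicate block, 1235 genes were called (480 higher, 755 lower), 3 repair genes, 2 of the wider list, 1 of end joining, 2 of replication (4.55%) and 3 of mitosis (8.11%), beside 3.21% of all tested genes higher. With each library left out, the calls ran from 391 to 3484 over all genes, 0 to 7 for repair genes, 1 to 15 for the wider list, 0 to 2 for end joining, 0 to 24 for replication and 0 to 18 for mitosis, and the repair genes' median log2 fold change from 0.12 to 0.27. Sign changes gave *Brca2* 0.0061 with no filter, *Rad51d* -0.00077 with at least 10 counts in every library, and with total counts alone *Rad51d* -0.026, *Fanci* -0.0036 and *Mus81* -0.021. With a library left out they ran from -0.044 to 0.036 for *Brca2*, -0.057 to 0.12 for *Rad51d*, -0.0060 to 0.13 for *Xrcc3*, -0.050 to 0.029 for *Fancc*, -0.023 to 0.27 for *Fancf*, -0.0090 to 0.10 for *Fancm*, -0.0014 to 0.075 for *Fanci*, -0.0056 to 0.11 for *Brip1* and -0.030 to 0.062 for *Mus81*. The median level of the repair genes was 10.1 CPM per kilobase of the longest and 22.8 of the mean transcript. Apart from settings with fewer libraries or other genes tested, the cause of these differences was not tested. Limits are the 3 libraries per group, unsorted cultures, and libraries that hold no measure of protein or of cell cycle phase.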

Other observations

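In mismatch, nucleotide excision and base excision repair 14.3%, 17.6% and 5.88% of the tested genes were called by edgeR, near or under the 17.2% of all tested genes. Of 7 mismatch repair genes, which correct replication errors, *Mlh3* fell from 29.9 ± 4.14 to 19.8 ± 1.34 CPM (SD, n = 3; log2 fold change -0.60, standard error 0.13, adjusted p = 0.0163 by edgeR), and 0 were higher, also at an unadjusted p under 0.05 and by DESeq2 and limma-voom. Of 17 nucleotide excision genes, which cut out bulky lesions, edgeR called 2 higher and 1 lower. These are 11.8% and 5.88%, beside 8.03% and 9.15% of all tested genes. *Rad23b* (0.32, adjusted p = 0.0450 by edgeR), which helps to recognise damage, was among those that rose. In the same list *Uvssa*, a factor of the repair coupled to transcription, fell from 32.5 ± 7.88 to 20.1 ± 1.27 CPM (SD, n = 3; -0.69, standard error 0.16, adjusted p = 0.0220 by edgeR). Of 17 base excision genes the glycosylase gene *Neil2* fell from 6.58 ± 1.03 to 3.15 ± 1.35 CPM (SD, n = 3; -1.06, standard error 0.31, adjusted p = 0.0424 by edgeR), and 0 rose by edgeR or limma-voom, against 1 by DESeq2 and 2 at an unadjusted p under 0.05. The medians of these lists were 0.042, 0.13 and 0.064. Without ASO 2, edgeR called 0 genes of each list, with 0, 3 and 1 higher and 1, 4 and 2 lower at an unadjusted p under 0.05, beside 11.5% and 13.2% of all genes tested there.

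E2F factors and their partners include both activators and repressors of cell cycle transcription. Of 18 tested genes of this list, 5 rose (27.8%, beside 8.03% of all tested genes) and 0 fell (beside 9.15%). At an unadjusted p under 0.05 edgeR had 1 lower, and DESeq2 and limma-voom called 0 lower. *Tfdp1*, the common partner of E2F proteins, rose from 281 ± 23.0 to 397 ± 33.2 CPM (SD, n = 3; log2 fold change 0.50, standard error 0.096, adjusted p = 0.0109 by edgeR). *E2f4* (0.36, adjusted p = 0.0399 by edgeR) and *E2f7* (0.34, adjusted p = 0.0403 by edgeR), both known mainly as repressors, *Mybl2* (0.51, adjusted p = 0.0447 by edgeR) and *E2f3* (0.38, adjusted p = 0.0484 by edgeR) rose as well. Without ASO 2, edgeR called 0 of the 18, with 5 higher at an unadjusted p under 0.05, or 27.8% beside 11.5% of all genes tested there. With the replicate block, edgeR called 1 of the 18 higher (5.56%, beside 3.21% of all tested genes) and 0 lower.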
